A study of Homo sapiens with 6 samples.

Results

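Chemokine and interleukin genes were examined in RNA-seq libraries of the small cell lung cancer line NCI-H69. Members were taken by symbol: CC chemokines (CCL and a number), CXC chemokines (CXCL and a number), CX3CL1, XCL1, XCL2, and interleukins written as IL with a number and at most a closing letter from A to F. Receptors were not members. The rule found 54 genes, 33 chemokine ligands and 21 interleukins, among the 17170 genes of the deposited table. The rule itself uses symbols, not levels.

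The labels describe 6 samples in one batch, 3 of stable SCRMP knockout cells made with CRISPR/Cas9 against the MIR7-3HG open reading frame and 3 of cells given a control guide RNA that targets nothing. Both groups are called biological replicates of NCI-H69 grown in RPMI-1640 with 10% fetal bovine serum. The labels do not say whether the knockout is 1 clone or a pool, nor when their cultures were split, so each SD here is a spread among 3 libraries that may be technical in part. The knockout samples are not analysed here because no column name matched them. Every value below is from the 3 libraries labelled control, and no test between groups was run.

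Each library held 20941185 to 22477571 estimated reads. NCI-H69 is regarded as neuroendocrine, and the libraries went against that label: of 15 measured neuroendocrine markers, 1 was detected, meaning 1 TPM or more (a level scaled by transcript length to a fixed total per library) in all 3 libraries. That gene was NCAM1, an adhesion molecule, at 25.7 TPM ± 3.66 (SD, n = 3). The defining granule protein CHGA had 0.080 TPM ± 0.020, SYP and INSM1 had 0.717 and 0.650 TPM, and the summed level of the list was 23.8 to 31.6 TPM. Fibroblast markers were detected for 13 of 17 genes, that is 76.5%, against 66.5% of all genes, with a summed level of 1728 to 1879 TPM led by POSTN (693.8 TPM ± 96.2), COL3A1 (567.5 TPM ± 19.03) and S100A4 (184.4 TPM ± 43.5), while PDGFRB, COL6A3 and FBN1 had means of 0.517 to 0.533 TPM and MFAP5 had 0.070 to 0.12 TPM. Leukocyte markers, from the cells best known for making many of these cytokines, were detected for 2 of 9 genes, with a summed level of 4.66 to 5.61 TPM and the defining PTPRC (CD45) at 0.517 TPM ± 0.343. The highest of these were ITGAM (1.43 TPM ± 0.238) and CD68 (1.36 TPM ± 0.281). In such bulk RNA, fewer cells of a type and less RNA per cell cannot be told apart. The part of any other cell type in the levels below was not tested.

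Chemokines are small secreted proteins that guide migrating cells through receptors coupled to G proteins, and they are classed by the spacing of cysteines near the amino terminus. Interleukins are a mixed group of secreted signals, most of which act through receptors built from more than 1 kind of subunit. In many cells the genes of both groups are kept low and are induced by inflammatory transcription factors such as NF-kB, while fibroblasts and some tumour cells make a few of them without an immune stimulus.

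Promoters of some members contrasted below were taken from RefSeq (GRCh38.p14). Of the 54 members, 39 matched, CCL2, XCL1, CXCL16, IL15 and IL34 not among them, and each window runs from 250 bases before to 50 bases after an annotated start. Shown are IL32, the highest interleukin, at chr16:3065153-3065452 (plus strand), IL23A, detected without its partner gene, at chr12:56338634-56338933 (plus strand), and the related CXC genes CXCL3 at chr4:74038640-74038939 (minus strand), CXCL2 at chr4:74099146-74099445 (minus strand) and CXCL1 at chr4:73869143-73869442 (plus strand), of which only CXCL3 was detected. Capitals mark matches to the kappa-B consensus, to TGANTCA and to TATAAA on either strand, each sequence being written 5′ to 3′ along its gene. TGANTCA is a looser form of the AP-1 core, with any base in the middle.
IL32: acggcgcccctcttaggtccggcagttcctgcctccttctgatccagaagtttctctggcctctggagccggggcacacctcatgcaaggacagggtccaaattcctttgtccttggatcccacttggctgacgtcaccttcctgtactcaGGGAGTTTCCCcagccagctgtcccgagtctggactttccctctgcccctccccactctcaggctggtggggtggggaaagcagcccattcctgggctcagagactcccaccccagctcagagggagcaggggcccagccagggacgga
IL23A: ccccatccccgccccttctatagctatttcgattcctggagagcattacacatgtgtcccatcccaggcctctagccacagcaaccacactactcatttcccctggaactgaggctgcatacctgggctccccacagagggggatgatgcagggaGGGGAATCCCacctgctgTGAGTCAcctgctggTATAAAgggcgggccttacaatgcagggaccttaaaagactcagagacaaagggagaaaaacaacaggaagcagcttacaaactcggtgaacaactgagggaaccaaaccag
CXCL3: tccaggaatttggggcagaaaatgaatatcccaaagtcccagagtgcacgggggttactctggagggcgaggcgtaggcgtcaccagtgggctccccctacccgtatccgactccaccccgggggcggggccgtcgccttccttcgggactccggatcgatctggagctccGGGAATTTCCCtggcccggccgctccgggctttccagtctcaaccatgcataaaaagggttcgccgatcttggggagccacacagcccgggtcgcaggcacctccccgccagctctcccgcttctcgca
CXCL2: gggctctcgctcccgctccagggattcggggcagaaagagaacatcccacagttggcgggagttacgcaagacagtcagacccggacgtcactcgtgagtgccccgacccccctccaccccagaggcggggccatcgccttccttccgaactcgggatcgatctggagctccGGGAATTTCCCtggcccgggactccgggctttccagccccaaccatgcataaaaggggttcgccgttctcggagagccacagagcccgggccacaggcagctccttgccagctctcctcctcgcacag
CXCL1: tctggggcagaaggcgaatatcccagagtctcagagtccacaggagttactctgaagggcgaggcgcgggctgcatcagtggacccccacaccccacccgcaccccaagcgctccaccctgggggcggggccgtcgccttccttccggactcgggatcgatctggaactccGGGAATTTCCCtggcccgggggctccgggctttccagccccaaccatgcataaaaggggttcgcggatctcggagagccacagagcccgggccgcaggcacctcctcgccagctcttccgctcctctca
In the 3 CXC promoters the capitals are the kappa-B match, which begins 79 bases before the start in CXCL3 and in CXCL1 and 78 bases before it in CXCL2, with a second, overlapping match on the other strand. In a global alignment the promoter of CXCL3 was 73.7% identical to that of CXCL2 and 82.5% identical to that of CXCL1, gaps counted. The IL32 window shown has the kappa-B match alone, and IL23A has all 3 motifs within a short stretch, none overlapping another. Some genes have more than 1 annotated start, and a match in any of their windows counts below. At least 1 kappa-B match was present for 14 of the 39 matched members, that is 35.9%, against 13.3% of all 27305 genes with a promoter. Of these 14 members, 4 were among the 6 detected members with a promoter: IL32, IL23A, CXCL3 and IL17D. IL32 and IL17D also have windows at other starts without a kappa-B match. TGANTCA was present for 33.3% of the members and 9.37% of all genes, and TATAAA for 38.5% and 14%. GGGCGG, a GC box that is not capitalised above, was present for 30.8% of the members and 48.3% of all genes. These matches describe letters in a window, and no binding was measured.

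Most members were at or near 0. Of the 54, 11 were detected, that is 20.4%, against 66.5% of all genes, and 2 reached a mean of 10 TPM, against 44.1% of all genes. Split by class, 5 of 33 chemokines and 6 of 21 interleukins were detected. With FPKM in place of TPM, 4 chemokines and 3 interleukins passed, without CXCL3, IL21, IL23A and IL17D, against 63.3% of all genes. The chemokine count was 8 at 0.5 TPM and 1 at 5 TPM, where 70.2% and 52.6% of all genes passed. The median member stood at 0.140 TPM and the median gene of the table at 6.87 TPM. No read was assigned in any library to 9 members, that is 16.7%, against 3.65% of all genes. A count of 0, in a single library or summed over all 3, still allows up to 3.69 reads, the upper end of a 95% counting interval. Because 37 members had under 10 reads in each library, the lower part of the list rests on little more than counting error.

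**Figure D1:**
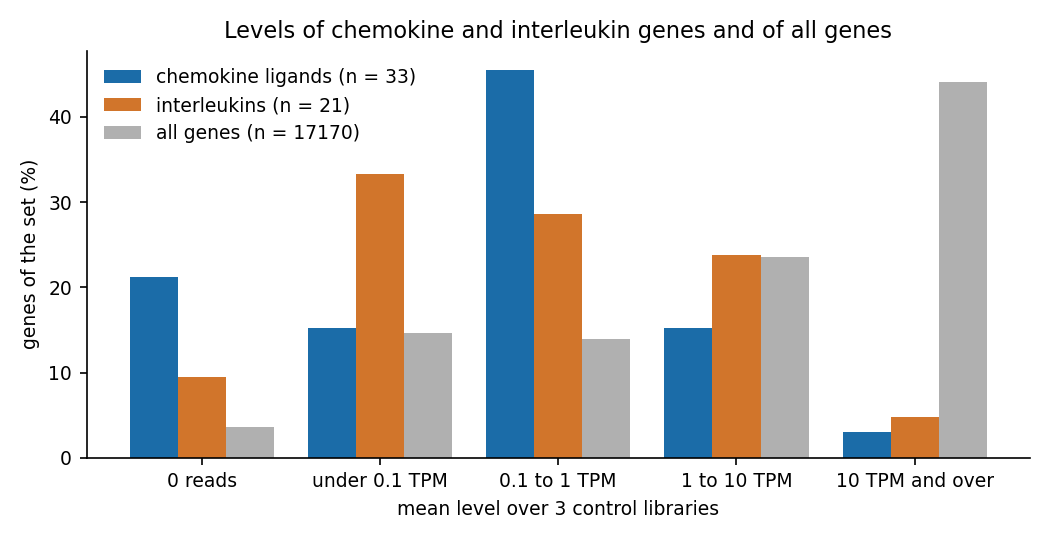
Percentage of genes (vertical axis) in classes of mean level over the 3 control libraries (horizontal axis) for 33 chemokine ligands, 21 interleukins and all 17170 genes. The class of 10 TPM and over holds 1 chemokine (3.03%) and 1 interleukin (4.76%), and 44.1% of all genes.

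Levels among the detected members were very uneven, with CCL2 and IL32 together holding 95.5% ± 0.467 of the summed TPM of all 54. CCL2, the monocyte chemoattractant that acts on CCR2, lies on chromosome 17, 34255285 to 34257203. It had 511.5, 474.0 and 633.0 TPM in control replicates 1, 2 and 3, on 4198, 4236 and 5780 reads. It ranked 230 among all genes and made up 96.5% ± 0.563 of the summed chemokine level, which was 558.6 TPM ± 82.7. All other chemokines together came to 19.1 TPM ± 0.708. CCL2 shared none of its 50-base transcript words with another gene (GENCODE release 29), so its reads have no close copy to be confused with at that length.

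IL32, a pro-inflammatory cytokine without a counterpart in mice, lies on chromosome 16, 3065403 to 3069530. It had 329.7, 338.1 and 368.7 TPM in replicates 1, 2 and 3, on 3179, 3542 and 3984 reads, and ranked 358. The 3 libraries were close together and all lay below the lowest CCL2 value. It held 93.9% ± 0.277 of the summed interleukin level of 368.0 TPM ± 21.7, and all other interleukins together came to 22.5 TPM ± 1.56. The nearest measured protein-coding genes on either side were far lower. MMP25, a membrane protease gene, had 0.633 TPM ± 0.142, and ZSCAN10, a zinc finger gene, had 0.0333 TPM ± 0.0306. On the same strand, the annotation places 129 exonic bases of RNU1-125P, a small nuclear RNA gene, over IL32. Of the 50-base words of IL32 transcripts, 2.16% also occur in RNU1-125P.

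**Figure D2:**
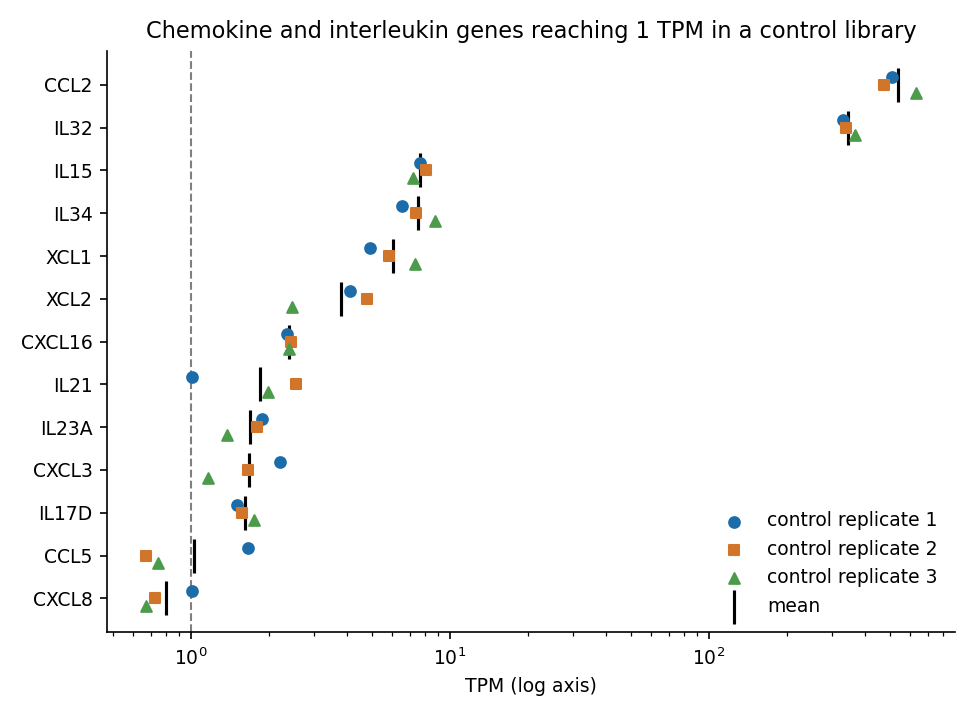
TPM (horizontal log axis) in control replicates 1, 2 and 3 for the 13 members that reached 1 TPM in at least 1 library, with the mean as a bar and 1 TPM as a dashed line. IL32 has its lowest value at 329.7 TPM, and the next gene by highest library, IL34, reaches 8.75 TPM.

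Next in order came a pair of interleukins that act on lymphocytes and on macrophages. IL15, which sustains natural killer and memory T cells, had 7.71, 8.07 and 7.23 TPM, with a mean of 7.67 ± 0.421 (SD, n = 3). IL34, a ligand of the macrophage receptor CSF1R, had 6.55, 7.38 and 8.75 TPM, with a mean of 7.56 ± 1.11. Their ranges overlapped, so their order is not resolved, and the mean of IL32 was 45.0-fold that of IL15. The IL34 range also overlapped that of XCL1.

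XCL1 and XCL2, the C chemokines that attract dendritic cells through XCR1, are neighbouring genes on chromosome 1 separated by 32607 bases. XCL1 had 4.90, 5.85 and 7.35 TPM, on 102.7, 137.2 and 159.0 reads, and XCL2 had 4.13, 4.78 and 2.47 TPM, on 25.1, 31.7 and 16.7 reads. The genes are near copies: 46.3% of the 50-base words of XCL2 transcripts occur in XCL1, and 18.1% of those of XCL1 occur in XCL2. The share of XCL1 in their sum was 54.3%, 55.0% and 74.8%, whereas the sum itself was 9.03, 10.6 and 9.82 TPM. The sum thus varied by 8.14% (SD over mean), against 20.5% for XCL1 and 31.4% for XCL2, and how reads were split between the copies is uncertain. XCL1 had 20.96 to 23.5 reads for each TPM and XCL2 6.08 to 6.76, so a unit of TPM rests on fewer reads for XCL2.

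The other detected members lay between 1 and 3 TPM. CXCL16, a chemokine anchored in the membrane that binds CXCR6, had 2.35, 2.44 and 2.40 TPM. IL21, a helper T cell cytokine, had 1.01, 2.55 and 1.98 TPM from 8, 22 and 17.4 reads, so replicate 1 passed the threshold narrowly. IL23A, the subunit particular to interleukin 23, had 1.88, 1.80 and 1.38 TPM. CXCL3, a neutrophil attractant of CXCR2, had 2.22, 1.66 and 1.17 TPM, and IL17D of the interleukin 17 family had 1.51, 1.58 and 1.75 TPM.

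CXCL16 lay above IL23A, CXCL3 and IL17D in every library, while its range overlapped that of IL21, and the ranges of IL21, IL23A, CXCL3 and IL17D each overlapped that of the next. Along the 11 detected genes, 4 of 10 neighbouring pairs did not overlap: CCL2 over IL32, IL32 over IL15, XCL1 over XCL2, and XCL2 over CXCL16. The orders that involve XCL2 rest on narrow gaps (4.90 against 4.78 TPM, and 2.47 against 2.44 TPM) and on the uncertain split of reads between XCL1 and XCL2. On the opposite strand, the annotation places 202 exonic bases of IL21-AS1 over IL21, 1296 of AL161772.1 over IL17D and 85 of MED11 over CXCL16. The libraries keep the strand, per the labels, but whether the counting used it is unstated, so reads of these partners cannot be told apart with certainty.

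A further pair of chemokines reached 1 TPM in 1 library. CCL5, a T cell and monocyte attractant, had 1.67, 0.670 and 0.750 TPM, and CXCL8, the best known neutrophil attractant, had 1.01, 0.730 and 0.670 TPM. In both cases replicate 1 was the high library. Between 0.1 and 1 TPM in the mean lay 21 members, the highest being CXCL8 at 0.803 TPM ± 0.181, the interferon-induced CXCL10 at 0.587 TPM ± 0.0416 and IL18, a cytokine released by inflammasomes, at 0.517 TPM ± 0.181. The interleukin 6 family members IL11 and IL6 had 0.433 TPM ± 0.0569 and 0.267 TPM ± 0.232. IL6 had 5.0, 0 and 5.95 reads, so replicate 2 had none.

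Genes of the chemokine clusters differed widely from their neighbours. On chromosome 17, CCL7, a monocyte attractant related to CCL2, starts 13017 bases beyond the end of CCL2 and had 0 reads in all 3 libraries. CCL8 and CCL13 of the same run had 3 and 6 reads over the 3 libraries together, with means of 0.103 and 0.207 TPM, and CCL1 had none. ASIC2, the nearest measured protein-coding gene on the other side of CCL2, was at 0 TPM. Of the 11 measured CC genes placed on the assembled chromosome 17, CCL2 was the only one detected in all 3 libraries.

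On chromosome 4 the neutrophil attractants of the CXC class showed a smaller contrast. CXCL3 had 27, 21.99 and 15.8 reads, CXCL2 had 0, 0 and 3.16 reads, and CXCL1 had 0 reads in each library. CXCL5, an activator of CXCR2 as well, had 1.73 reads in replicate 2 and none elsewhere. The 3 similar genes share 50-base words, 6.01% of those of CXCL3 and 12.5% of those of CXCL2, which leaves most of CXCL3 distinct from its relatives. Their promoters, printed above, carry the same kappa-B letters.

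**Figure D3:**
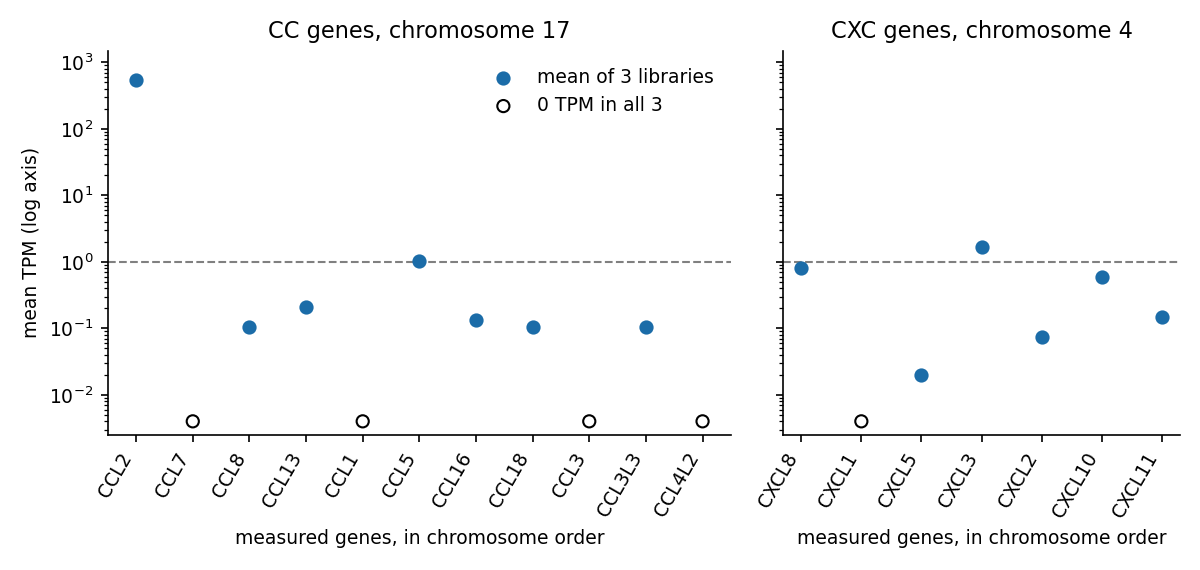
Mean TPM over 3 control libraries (vertical log axis) for measured CC genes on chromosome 17 and CXC genes on chromosome 4, in chromosome order, with open circles for genes at 0 TPM in all 3 libraries and 1 TPM dashed. CCL2 stands at 539.5 TPM beside CCL7 at 0, and CXCL3 at 1.68 TPM beside CXCL2 at 0.0733.

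The remaining members with 0 reads were CCL3, CCL4L2, CCL17 and CCL25 among chemokines and IL1A and IL12B among interleukins. IL1A is an alarm signal of damaged cells. IL12B encodes the chain that IL23A needs to form interleukin 23, so transcripts of the IL23A chain were found without those of its partner. IL12A, which joins IL12B in interleukin 12, had 0.433 TPM ± 0.175. Of the interleukin 1 family, 0 of 3 measured members were detected, and of the interleukin 10 family 0 of 2. CASP1, a protease that matures interleukins of the first of these families, had 0.250 TPM ± 0.113. Of 12 genes of inflammasomes and interleukin 1 processing, 4 were detected, that is 33.3%, against 66.5% of all genes. These were NINJ1 (54.4 TPM ± 9.14), CAPN1 (41.9 TPM ± 2.98), CAPN2 (41.5 TPM ± 1.54) and CASP4 (38.0 TPM ± 2.71).

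Receptors of the detected ligands were low. A receptor was listed for 9 of the 11 and had a value for 7 of them, and for 0 of these 7 was a complete receptor detected. Over all 38 ligands with every receptor subunit measured, detected or not, a complete receptor was detected for 6. With only 7 detected ligands, 0 cannot be told apart from that share. CCR2, the receptor of CCL2, had 1 read in 1 library and none in the others, at 0.00667 TPM ± 0.0115. CXCR6 of CXCL16 stood at 0.0267 TPM ± 0.0231, CXCR2 of CXCL3 at 0.253 TPM ± 0.0850 and CSF1R of IL34 at 0.0700 TPM ± 0.0557. XCR1, the receptor of the other two ligands, XCL1 and XCL2, has no value here and is not analysed. For IL15, the binding chain IL15RA was detected at 2.94 TPM ± 0.685, the shared chain IL2RB stood at 1.07 TPM ± 0.204 with 1 library under the threshold, and the common gamma chain IL2RG at 0.423 TPM ± 0.206.

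Complete receptors were detected for 6 ligands that were not themselves detected. IL11RA, the binding chain for interleukin 11, was the highest interleukin receptor subunit at 84.4, 89.9 and 91.0 TPM, and its signalling partner IL6ST had 21.1 TPM ± 3.91. IL6R, which joins IL6ST to bind interleukin 6, had 1.96 TPM ± 0.427. CCR10, which binds CCL27 and CCL28, was the highest chemokine receptor at 10.6, 11.9 and 10.5 TPM. IL17RB (5.25 TPM ± 0.238) and IL17RA (3.96 TPM ± 0.641) make up the receptor of IL25, and IL17RB also binds IL17B.

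CCL28 and IL11 had means of 0.223 and 0.433 TPM, and CCL27, IL17B and IL25 each had 1 read over the 3 libraries. Of the 50-base words of CCL27 transcripts, 87.8% also occur in AL162231.4, so how reads of CCL27 were assigned is uncertain. Over the whole lists, 1 of 13 measured chemokine receptors and 17 of 35 interleukin receptor subunits were detected, against 66.5% of all genes. After IL11RA the highest subunits were IL10RB (24.4 TPM ± 0.592) and IL27RA (23.1 TPM ± 1.01). Among chemokine receptors CXCR4, the receptor of CXCL12, and CCR4 followed at 1.27 TPM ± 0.529 and 0.383 TPM ± 0.0503. The transcript levels say nothing of protein or of receptors on other cells.

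**Figure D4:**
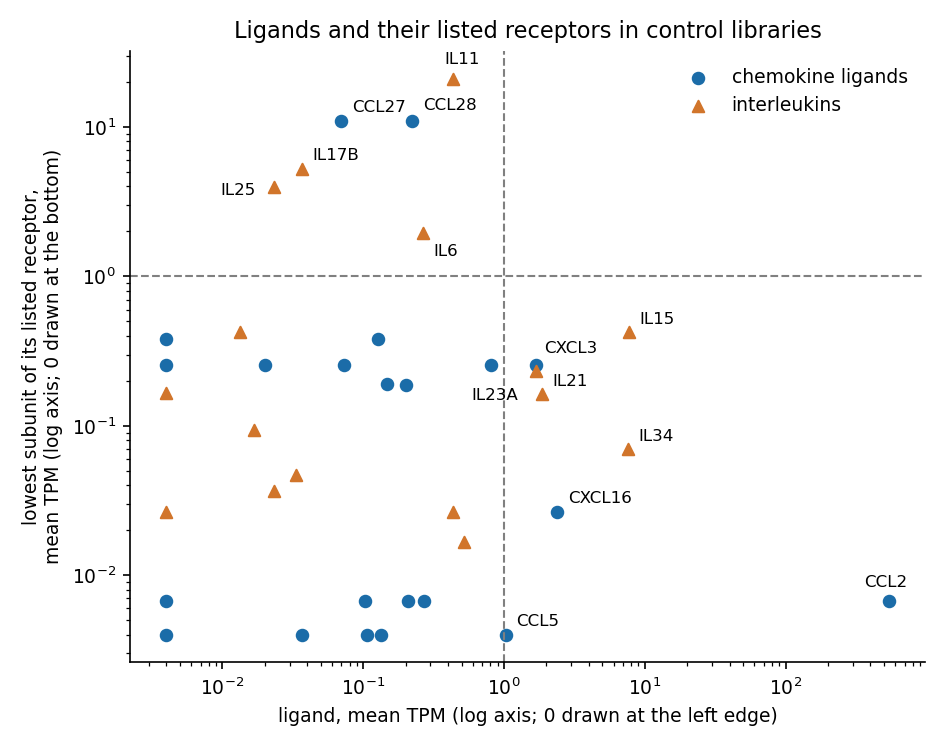
Mean TPM of each ligand (horizontal log axis) against the mean TPM of the lowest subunit of its best expressed listed receptor (vertical log axis) for the 38 ligands whose receptor subunits were all measured; dashed lines mark 1 TPM, zeros are drawn at the edges and some points coincide. The upper right quadrant is empty, with CCL2 at 539.5 TPM against CCR2 at 0.00667 TPM and IL11 at 0.433 TPM against IL6ST at 21.1 TPM. Of the 38 ligands, only 7 were detected and only 6 had a complete receptor detected.

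Spread between the libraries differed among the members. CCL2 varied by 15.4% (SD over mean), where counting error alone would give 1.45% for its reads, and this was above the spread of 93.7% of the 7577 genes with at least 10 TPM. Replicate 3 was the high library. IL32 varied by 5.94%, close to the 6.11% of the median gene of that set, and the ratio of CCL2 to IL32 was 1.55, 1.40 and 1.72. IL34 (14.7% against 7.95% from counting) and XCL1 (20.5% against 8.67%) also lay above counting error, whereas IL15 (5.49% against 6.81%) and CXCL16 (1.88% against 12.2%) lay below it. With 3 libraries these spreads are themselves imprecise, and none was tested.

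**Figure D5:**
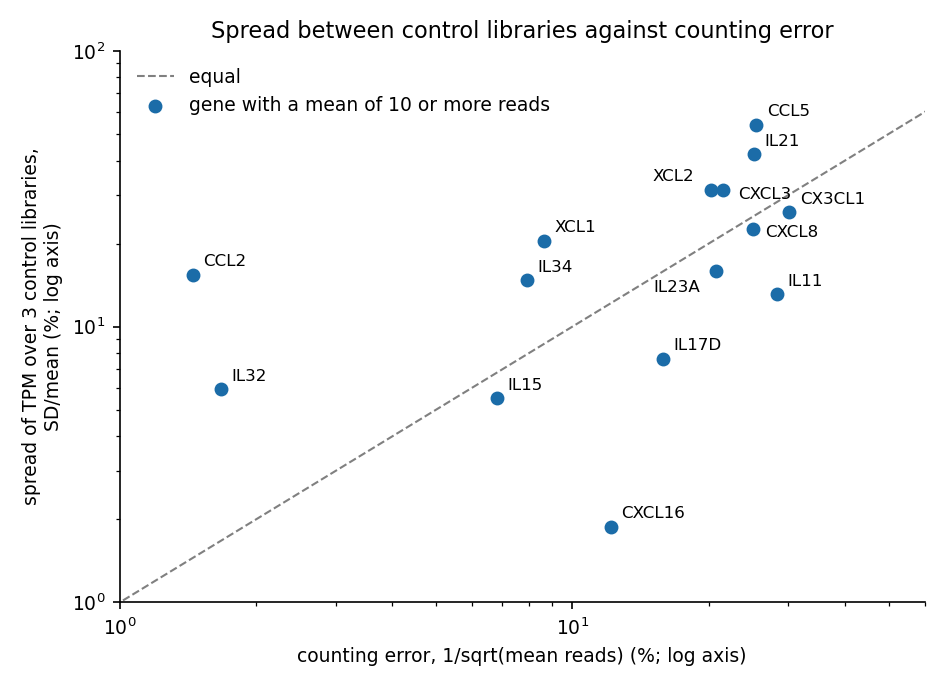
Spread of TPM over the 3 control libraries (SD over mean in percent, vertical log axis) against the counting error of the mean estimated reads (percent, horizontal log axis) for members with a mean of at least 10 reads; the dashed line marks equality. CCL2 at 15.4% and IL32 at 5.94% lie farthest left, above counting errors of 1.45% and 1.67%.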

How the data were processed

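Per the submitters' processing notes, HISAT2, StringTie, DESeq2 and GRCh38 were used, with no versions or roles; which annotation and gene filter applied is unstated there. The authors deposited, per the file headers, TPM, FPKM and estimated read counts (expected counts, not whole) for 17170 genes. Columns were matched to samples by name: 3 control columns of each kind matched, and 12 columns of values for further libraries matched no sample and were not used. The planned knockout comparison was therefore not run.

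Computed here were means and SDs of TPM, detection (at least 1 TPM in all 3 control libraries), list counts and counting errors (1/sqrt of mean reads). Intervals and limits cover counting error only. Log2 values are log2(TPM + 1). The members, gene lists and receptor pairs were chosen with earlier results of these data known. Named genes are all detected members, the 3 highest of those between 0.1 and 1 TPM, members at 0 reads, the 3 highest of each list and receptors of detected ligands; others were chosen after their values were seen, and some list genes are counted but not reported by name here. Shared 50-base transcript words and exon overlaps come from GENCODE release 29 (GRCh38), which matched 53 members, and positions and promoters from RefSeq (GRCh38.p14). The software was Python 3.11.15 with Biopython 1.88, scipy 1.17.1, numpy 2.4.6, matplotlib 3.10.9 and pandas 2.3.3.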

Additional observations from a re-analysis of the deposited data

How the results depend on the processing

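No paired analysis was possible because columns for the knockout group were lacking among those matched by name. Of 84 alternative values, 71 stayed within their limit and 13 moved. For gene levels, sums, the CCL2 share and the median, the limit was the SD over the 3 libraries. A mean that leaves out 1 of 3 libraries cannot shift by that much. Those leave-out values could therefore only stay, and they say nothing of how firm the results are. Chemokines detected numbered 8 at 0.5 TPM and 1 at 5 TPM, against 5. Interleukins detected numbered 3 with FPKM in place of TPM and 3 at 5 TPM, against 6. Of all genes, 70.2% passed at 0.5 TPM, 52.6% at 5 TPM and 63.3% with FPKM, against 66.5%. With at least 10 estimated reads, 1 ligand (IL11) had a complete receptor, against 0. IL21 was not among the 13 members then counted, and 73% of all genes then passed. Without ribosomal protein and MTRNR2L genes, which raises every other gene by 0.54 on the log2 scale, the summed level was 810.9 TPM for chemokines and 534.2 TPM for interleukins. Chosen after seeing the data, leaving out CCL2 left 19.1 TPM, leaving out IL32 left 22.5 TPM, and summing near-identical copies gave 4 detected chemokines. The CCL2 share of chemokines was 93.2% with estimated reads and 97.4% over detected members only. The median member lay at -2.78 relative to the median gene on log2(TPM + 1), at -4.88 on log2(TPM + 0.1) and at -6.54 with estimated reads. Leaving out each control library gave 5 chemokines, 6 interleukins and 0 complete receptors each time, sums of 512.2 to 591.4 and 355.9 to 376.8 TPM, a CCL2 share of 96.2% to 96.7% and a median of -2.85 to -2.74. Members under 10 reads are limited by depth.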

Other observations

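Related cytokines outside the naming rule were examined in the same libraries. Of 21 measured related cytokines, 11 were detected, that is 52.4%, against 66.5% of all genes, led by the macrophage migration inhibitory factor MIF at 1392 TPM ± 106, the vascular growth factor VEGFA at 147.4 TPM ± 4.24 and TGFB1 at 38.5 TPM ± 5.70. TSLP, an epithelial cytokine related to interleukin 7, had 24.9, 27.9 and 22.1 TPM, against 2 reads in 1 library for IL7 itself. In the interleukin 6 family, CLCF1 (9.45 TPM ± 1.38) and CTF1 (8.39 TPM ± 0.584) lay above IL11 and IL6, and the receptor chains LIFR and OSMR had 6.87 TPM ± 1.37 and 12.7 TPM ± 1.18. EBI3, a chain of interleukin 27 and interleukin 35, had 1.76 TPM ± 0.193, and TNF had 0.360 TPM ± 0.173.

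Lists of regulators were set beside the same share of 66.5% of all genes detected. All 18 NF-kB and C/EBP genes of the list were detected, led by the inhibitor NFKBIA (272.3 TPM ± 31.7), CEBPB (197.8 TPM ± 6.02) and NFKB2 (103.4 TPM ± 3.09), and RELA had 48.4 TPM ± 1.79. All 10 regulators of cytokine message decay were detected, led by HNRNPD (219.7 TPM ± 16.96), KHSRP (91.8 TPM ± 3.00) and ZFP36L1 (79.0 TPM ± 2.98). Of 18 JAK-STAT genes, 15 were detected, that is 83.3%, against 66.5% of all genes, led by STAT6 (50.7 TPM ± 1.77) and TYK2 (37.3 TPM ± 1.55). Epithelial markers were detected for 3 of 12 genes, led by ESRP1 (39.4 TPM ± 5.22), MUC1 (6.84 TPM ± 0.901) and KRT8 (3.04 TPM ± 0.257), and endothelial markers for 0 of 6, with ESAM at 0.563 TPM and PECAM1 and TIE1 at 0.0267 TPM each. These levels are from the control libraries and were set against no other group.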
